A study of Mus musculus with 4 samples.

Results

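The cytochrome P450 genes of families 1 to 3 were read as a group in cultured mouse hepatocytes that lack dynamin-related protein 1 (Drp1), the enzyme encoded by Dnm1l that divides mitochondria. A gene belonged to the group when the array's annotation gave it a name of the form Cyp1, Cyp2 or Cyp3 followed by a subfamily letter and a number, whatever its level. This took 60 of the 37072 gene names on the array, covered by 80 probes, and 16 genes had more than 1 probe. Of the 60 genes, 49 had a probe that the scanner software marked as well above background on at least 1 array, and 45 had one on all 4 arrays. The other 11 (Cyp1b1, Cyp2b13, Cyp2b19, Cyp2b23, Cyp2c39, Cyp2c53-ps, Cyp2c65, Cyp2c66, Cyp2g1, Cyp2j11 and Cyp2t4) were not well above background anywhere and have no level here. Each gene is given by its probe with the highest mean signal among those well above background on at least 1 array.

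The 4 groups were Control, Drp1LiKO, Control palmitate and Drp1LiKO palmitate, with 1 array each. The mice were of strain C57BL/6, per the methods male, and their age is not given in the labels. Drp1LiKO animals carried floxed Dnm1l alleles with Cre recombinase under the albumin promoter, which is active in hepatocytes. Per the methods the controls were floxed littermates. The labels name the source of both Control groups wild-type, while the title of Control palmitate names it Drp1flox. Hepatocytes were cultured on collagen and harvested 24 h after seeding, either untreated or exposed to 200 μM palmitate, a saturated fatty acid; the labels do not say for how long. By its label, the raw data for untreated Control also serve a second series.

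P450 enzymes of these families are haem proteins of the endoplasmic reticulum that oxidise drugs, steroids, bile acids, fatty acids and plant toxins. They receive electrons from P450 reductase (Por), and in liver many are induced through the receptors AhR, CAR and PXR. Cultured hepatocytes are known to lose much of this expression, and in liver several of these genes are restricted to one zone of the lobule or to one sex. The genes lie in clusters of close copies, so a probe made for one may also bind the transcript of its neighbour.

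With 1 array in each group there was no spread between replicates, and no test was made. A level is the log2 signal minus the 75th percentile of that array, so that 0 is that percentile. A difference is that of 2 levels of the same probe, and "2-fold" stands for a log2 difference of at least 1 in size with the probe well above background on 1 or both of the arrays compared. Repeat spots of the same probe within an array had a median SD of 0.0348 to 0.0393 log2 units, which covers spot noise alone. Both untreated arrays were on 1 slide and both palmitate arrays on another, so a genotype difference was read within a slide, whereas palmitate and slide cannot be told apart.

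Of all 4 arrays, 44.7 to 51.1% of probes were well above background and 0 spots were saturated. Dnm1l was lower in Drp1LiKO than in Control by a log2 difference of -1.35 untreated and -1.42 with palmitate, as the labels state. Markers of other liver cells differed between the genotypes: of 10 macrophage genes measured on the untreated arrays, 9 were at least 2-fold higher in Drp1LiKO, with 7 of 8 stellate and mesenchymal and 6 of 8 endothelial genes. On the palmitate arrays the counts were 8 of 9, 6 of 7 and 5 of 7. On the linear scale the summed level of the macrophage list was 9.33 and 12.1 in the Control arrays against 34.5 and 34.3 in the Drp1LiKO arrays, that of the stellate list 1.08 and 1.23 against 11.1 and 13.3, and that of the endothelial list 1.53 and 1.47 against 4.56 and 3.20. The macrophage markers Cd163 and Timd4 and the stellate marker Des did not reach that mark on any of them. The hepatocyte list summed to between 1256 and 1312 on every array, mostly Serpina1a and Alb, which differed between genotypes by between -0.21 and 0.28, and 2 of its 9 genes measured untreated (Tat and Ass1) were at least 2-fold higher in Drp1LiKO. On the palmitate arrays 3 of 9 hepatocyte genes were (Tat, Cps1 and Pck1), with Pck1 well above background on 1 array. The cholangiocyte list summed to 60.5 and 57.1 in the Control and 41.8 and 43.6 in the Drp1LiKO arrays, and the lymphocyte list to between 2.19 and 2.76. The part of these other cells in the P450 differences was not tested, and in such bulk RNA fewer cells of a type and less RNA per cell cannot be told apart.

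Promoters of the Cyp3a subfamily are shown first because 6 of its genes were higher together in Drp1LiKO while Cyp3a13 lay near 0. Each line gives bases 190 to 111 before the transcription start in RefSeq, build GRCm38.p6, read 5′ to 3′ on the gene's strand. Capitals mark AGGTCA and AGTTCA, the building blocks of the sites that nuclear receptors such as PXR and CAR bind, on either strand.
Cyp3a11, chr5:145879965-145880044, minus strand: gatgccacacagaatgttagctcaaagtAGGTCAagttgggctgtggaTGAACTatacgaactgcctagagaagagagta
Cyp3a41a, chr5:145720247-145720326, minus strand: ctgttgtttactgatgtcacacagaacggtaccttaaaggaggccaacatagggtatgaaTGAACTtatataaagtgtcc
Cyp3a16, chr5:145469834-145469913, minus strand: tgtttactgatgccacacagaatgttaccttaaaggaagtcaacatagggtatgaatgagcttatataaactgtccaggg
Cyp3a25, chr5:146009728-146009807, minus strand: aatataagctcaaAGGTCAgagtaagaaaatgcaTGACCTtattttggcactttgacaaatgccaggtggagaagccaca
Cyp3a57, chr5:145345079-145345158, plus strand: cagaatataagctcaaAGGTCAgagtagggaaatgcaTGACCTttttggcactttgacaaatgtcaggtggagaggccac
Cyp3a13, chr5:137921730-137921809, minus strand: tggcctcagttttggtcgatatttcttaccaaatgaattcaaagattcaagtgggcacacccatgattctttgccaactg

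Aligned without gaps over the 250 bases before the start, the promoters of Cyp3a16, Cyp3a41a and Cyp3a44 were 93.9 to 95.9% identical and those of Cyp3a25 and Cyp3a59 were 95.6% identical. The promoter of Cyp3a13 shared at most 39.8% of bases with any other Cyp3a promoter, and that of Cyp3a11 at most 45.5%. Low identity was also found between genes that were higher together, such as Cyp3a41a and Cyp3a57 at 33.2% and Cyp3a16 and Cyp3a25 at 39.7%. An alignment without gaps scores low wherever bases were inserted or lost, so low values here do not measure how unlike the promoters are. Cyp3a11 and Cyp3a16 scored 45.2%, although the stretches shown above share a long run of bases. In the same window, of the 50 members with a RefSeq promoter, 15 held AGGTCA (30%), 5 held AGTTCA (10%) and 7 held GCGTG (14%), the core of the AhR site. Over all 32851 promoters the shares were 14.0%, 11.8% and 28.2%. Of the 14 members with a promoter that were at least 2-fold higher in Drp1LiKO in both conditions, 7 held AGGTCA. These were Cyp2b9, Cyp2c70, Cyp2f2, Cyp3a11, Cyp3a25, Cyp3a57 and Cyp3a59. Of the 27 other measured members with a promoter, 3 did (Cyp2c29, Cyp2j5 and Cyp3a44), and Cyp3a44 was lower in Drp1LiKO untreated. AGTTCA was held by 2 of the 14 and 3 of the 27, and GCGTG by 1 and 5. The other holders of AGGTCA (Cyp2b13, Cyp2b19, Cyp2b23, Cyp2c39 and Cyp2t4) were not well above background. The 14 were picked by their differences in these same data. In Cyp3a25 and Cyp3a59 the AGGTCA copies start 177 and 156 bases before the transcription start, on opposite strands, and in Cyp3a57 they start at 174 and 153. Several of those 7 higher members with AGGTCA are close copies, so they are not separate cases, and Cyp3a16 held neither AGGTCA nor AGTTCA. Whether these motifs play a part in the genotype differences was not tested.

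Some probes cannot separate such copies. Of the 49 probes that stand for members, 10 list a second RefSeq gene in the array's own annotation. The Cyp2a4 probe lists Cyp2a5, the Cyp2b9 probe lists Cyp2b10, the Cyp3a25 probe lists Cyp3a59, the Cyp3a11 probe lists Cyp3a41a, Cyp3a41b and Cyp3a44, the Cyp2c37 probe lists Cyp2c50, the Cyp3a41a probe lists Cyp3a41b and the Cyp2j13 probe lists Cyp2j12. Among the Cyp2c genes the Cyp2c40 probe lists Cyp2c68, the Cyp2c68 probe lists Cyp2c40 and Cyp2c69, and the Cyp2c69 probe lists those 2 and Cyp2c67. Beyond that annotation, 2 pairs of probes overlap almost base for base. The Cyp3a25 and Cyp3a57 probes agree at 49 of 52 overlapping bases and the Cyp2c67 and Cyp2c68 probes at 55 of 59. The 30-base stretches below show how little separates them, with the differing bases in capitals.
Cyp3a25 probe: gtgtcaagagataaacccagaactggaTcA
Cyp3a57 probe: gtgtcaagagataaacccagaactggaCcG
Cyp2c67 probe: acAcagtcccagAaattccatctatattcc
Cyp2c68 probe: acCcagtcccagGaattccatctatattcc
Values of such genes are therefore best read by subfamily.

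Of the 49 members measured untreated, 40 lay above 0 in Drp1LiKO relative to Control, beside 9504 of the 19874 genes measured. Of 43 conjugation enzymes (Ugt, Sult and Gst genes), 32 lay above 0 as well. On the untreated arrays 17 of 49 members were at least 2-fold higher and 1 was at least 2-fold lower, beside 8.84% and 5.59% of the 19874 genes measured. That split of all genes, 1756 higher and 1110 lower, was 1471 and 1476 when arrays were centred on their median, and the members' counts were then 14 and 2. Of these 18, Cyp1a1, Cyp2c55 and Cyp3a44 were well above background on 1 of the untreated arrays, and of the 46 members well above background on both, 15 were higher and 0 lower. On the palmitate arrays 15 of 47 were higher and 1 was lower, beside 7.26% and 4.26% of 18890 genes. The median difference was 0.49 untreated and 0.53 with palmitate, against -0.02 and -0.03 over all genes measured. The members that were higher belonged mostly to Cyp3a, Cyp2a, Cyp2b and Cyp2f, while Cyp2d and most of Cyp2c differed by less than 2-fold and Cyp2e1, Cyp2r1 and Cyp2j9 lay lower.

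**Figure D1:**
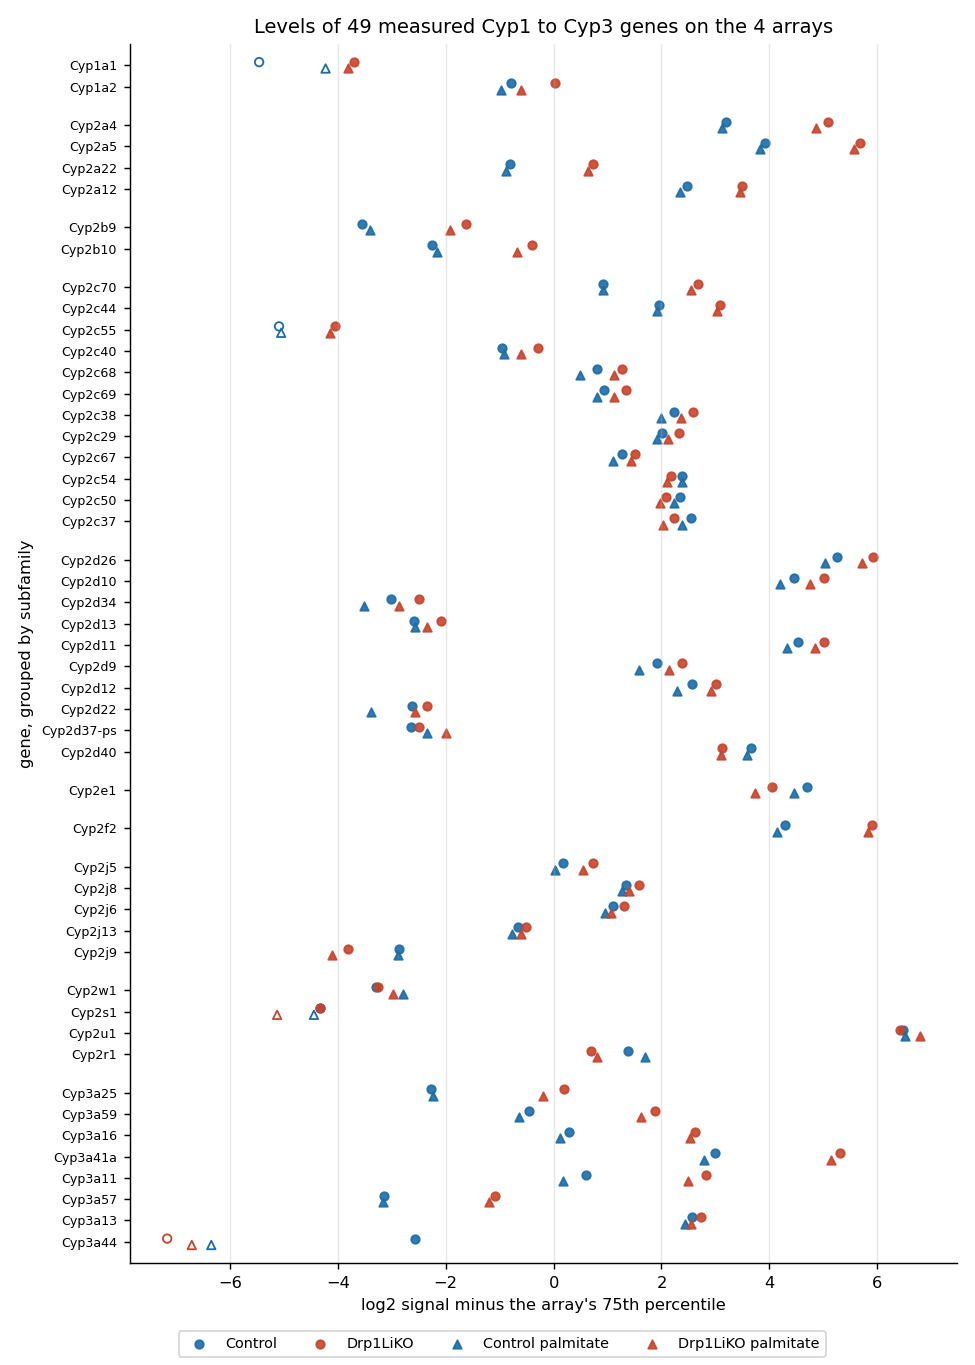
Levels of the 49 measured genes on each array, as log2 signal minus the 75th percentile of the array (horizontal axis), grouped by subfamily and ordered within it by the untreated genotype difference; circles are untreated and triangles palmitate arrays, blue is Control and red Drp1LiKO, and open symbols mark probes not well above background on that array. The red symbols of Cyp3a11 lie at 2.83 and 2.49 and the blue ones at 0.60 and 0.18, whereas those of Cyp3a13 lie between 2.43 and 2.74.

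Cyp3a11, the mouse enzyme that stands closest in role to the main drug-metabolising P450 of human liver and a classical PXR target, has its probe at chr5:146672058-146673925 (mm9, across an intron). Its level was 0.60 in Control, 2.83 in Drp1LiKO, 0.18 in Control palmitate and 2.49 in Drp1LiKO palmitate, and both Drp1LiKO arrays lay above both Control arrays. That is 4.69-fold higher untreated and 4.94-fold higher with palmitate. Cyp3a16 and Cyp3a41a, steroid-hydroxylating enzymes found mainly in young or female liver, differed by as much. Cyp3a16 had levels of 0.28, 2.62, 0.12 and 2.53 in the same order of arrays. Cyp3a41a had levels of 2.99, 5.32, 2.80 and 5.14. The genotype difference of Cyp3a16 was 5.05-fold untreated and 5.31-fold with palmitate, and that of Cyp3a41a was 5.00-fold and 5.06-fold.

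Cyp3a25, Cyp3a57 and Cyp3a59 were dimmer probes of the same cluster. Cyp3a25 had levels of -2.28, 0.19, -2.24 and -0.20, Cyp3a57 had -3.14, -1.09, -3.17 and -1.19, and Cyp3a59 had -0.45, 1.89, -0.64 and 1.61. Their log2 differences ran from 2.06 to 2.47 untreated and from 1.98 to 2.25 with palmitate. With normexp background correction, which pulls dim probes together, the Cyp3a57 differences were 1.30 and 1.15 and those of Cyp3a25 were 1.90 and 1.49. The Cyp3a16, Cyp3a57 and Cyp3a59 probes list no other RefSeq gene, although the Cyp3a57 probe resembles that for Cyp3a25 as shown above. Cyp3a13 lies outside the cluster on the same chromosome, with its probe at chr5:138335412-138335471 (mm9). It had levels of 2.56, 2.74, 2.43 and 2.55 and differed by 0.18 and 0.12, and after centring on the array median by less than 0.03 in size, below 0.

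Cyp3a44 was the single Cyp3a gene that ran the other way. Only untreated Control had its probe well above background, with a level of -2.56 there and of -7.17, -6.35 and -6.71 on the Drp1LiKO, Control palmitate and Drp1LiKO palmitate arrays. It was at least 5.19-fold lower in Drp1LiKO untreated, and in Control at least 3.04-fold lower with palmitate. With normexp the log2 differences were smaller than these bounds, at -1.48 by genotype untreated and -1.13 by palmitate in Control. The Cyp3a11 probe, which also lists Cyp3a44, was higher in Drp1LiKO. Of the 24 places around this spot, 2 held probes lit on that array and no other, against a mean of 0.285 over all spots of the array. The part of the spot's surroundings in this value was not tested.

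On chromosome 7 the Cyp2a, Cyp2b and Cyp2f genes form a second cluster, taken here as the span from Cyp2b10 to Cyp2f2. All 7 members measured within that span were at least 2-fold higher in Drp1LiKO in both conditions. The count depends on these chosen ends, as Cyp2s1, a member beside the span, differed by 0.003 untreated. Cyp2a5, which hydroxylates coumarin and nicotine, had levels of 3.92 and 5.68 on the untreated and 3.83 and 5.57 on the palmitate arrays, Control before Drp1LiKO. Cyp2a4, which hydroxylates testosterone and is expressed mainly in female liver, had 3.20 and 5.09, then 3.12 and 4.87. Their genotype differences were 3.39-fold and 3.34-fold for Cyp2a5 and 3.71-fold and 3.38-fold for Cyp2a4, which share signal by the annotation of the Cyp2a4 probe. Cyp2a22 was 2.88-fold higher in both conditions, with levels of -0.81, 0.72, -0.89 and 0.64 on the Control, Drp1LiKO, Control palmitate and Drp1LiKO palmitate arrays. Cyp2a12 lay near the threshold, at 2.48, 3.49, 2.35 and 3.46, a difference of 1.00 untreated and 1.11 with palmitate, and it fell short of 2-fold in both conditions when arrays were centred on their median.

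Cyp2b10, the standard CAR target of mouse liver, had levels of -2.25, -0.39, -2.17 and -0.68 in that order. Cyp2b9, the female-predominant gene of the same subfamily, had levels of -3.55, -1.62, -3.41 and -1.92. The genotype difference was 3.63-fold for Cyp2b10 and 3.82-fold for Cyp2b9 untreated, and a log2 difference of 1.49 for each with palmitate. With normexp the Cyp2b9 difference was 1.06 untreated and 0.74 with palmitate, the latter below 2-fold. Cyp2f2, known for activating naphthalene and in liver a periportal gene, had levels of 4.29, 5.91, 4.15 and 5.84, which is 3.06-fold and 3.23-fold higher in Drp1LiKO.

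**Figure D2:**
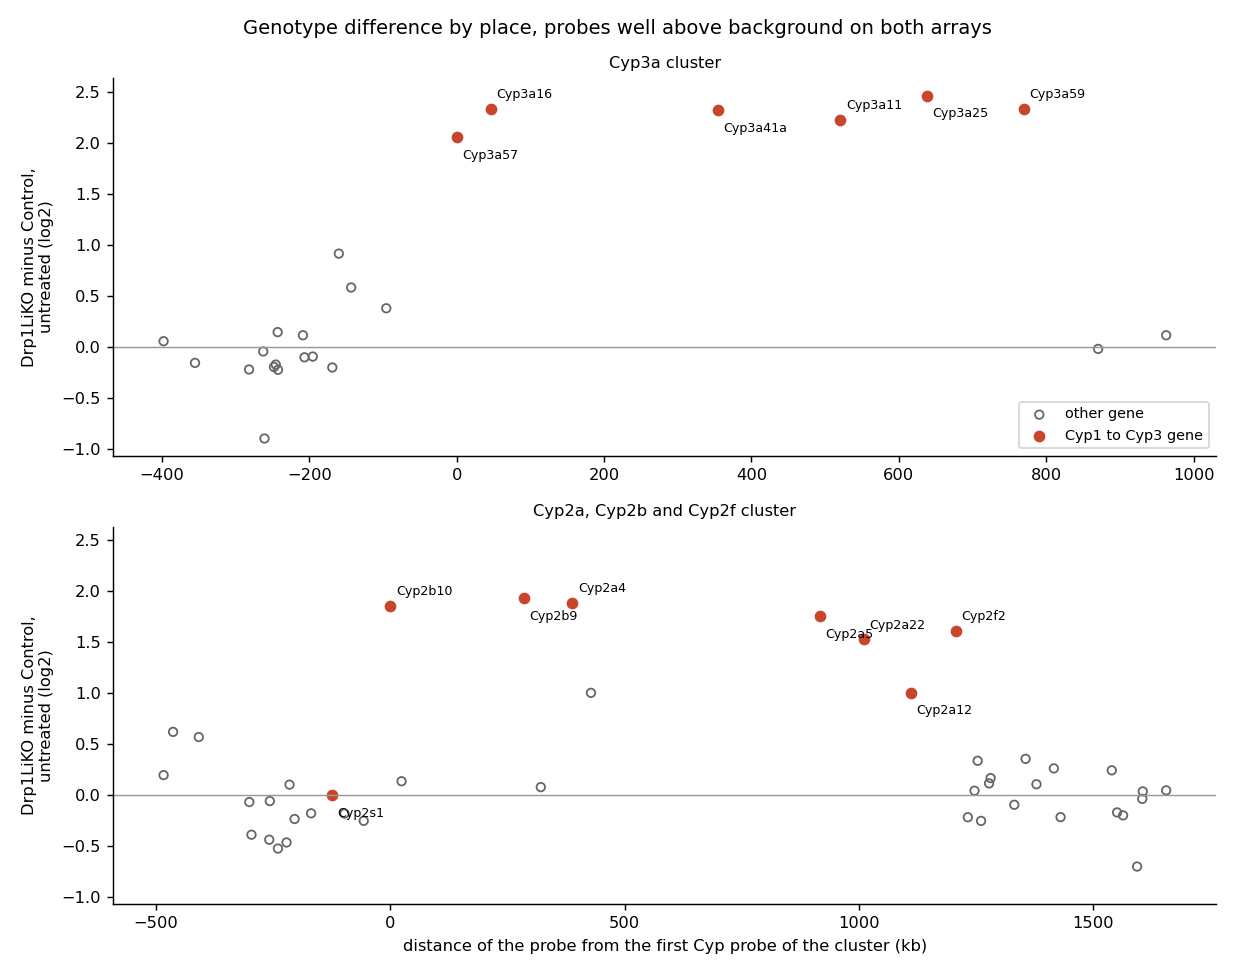
Log2 difference between the untreated Drp1LiKO and Control arrays (vertical axis) against the distance of each probe from the first Cyp probe of its cluster in kb (horizontal axis), for the Cyp3a cluster on chromosome 5 and the Cyp2a, Cyp2b and Cyp2f cluster on chromosome 7; filled points are Cyp1 to Cyp3 genes, open points other genes within 500000 bases, all well above background on both arrays, which leaves out Cyp3a44. The Cyp3a points lie between 2.06 and 2.47, and the genes beside both clusters have medians near 0.

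The genes beside both clusters had medians near 0. The Cyp3a cluster spans chr5:146151322-146920697 (mm9) by the outermost probes. Within 500000 bases of it, 20 other genes measured on the untreated arrays had a median difference of -0.07, with 1 at least 2-fold higher and 1 lower, and 21 on the palmitate arrays had a median of -0.10 with 3 higher and 0 lower. The chromosome 7 cluster spans chr7:26711522-27918629. Its 34 neighbours had a median of -0.06 with 0 at least 2-fold higher and 1 lower, and on the palmitate arrays 32 neighbours had a median of -0.02 with 0 in either direction. Cyp2s1, a member outside the span chosen for that cluster, had levels of -4.33 and -4.32 on the untreated arrays and was not well above background on the palmitate arrays. Of the other genes lying between the Cyp genes of chromosome 7, 1 of 4 was at 2-fold untreated and 1 of 3 with palmitate. These were Nlrp9c, at 1.00 untreated and 0.61 with palmitate, and Nlrp9a, at 2.44 with palmitate and well above background on 1 array.

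The Cyp2c genes of chromosome 19 were mixed. Of 12 measured members, Cyp2c70 and Cyp2c44 were at least 2-fold higher in both conditions, Cyp2c55 counted untreated by its measured difference of 1.04 from a value at background, and the medians were 0.38 and 0.33. Cyp2c70, the enzyme that makes muricholic acids in mouse bile, had levels of 0.92, 2.68, 0.92 and 2.54 on the Control, Drp1LiKO, Control palmitate and Drp1LiKO palmitate arrays. That was 3.39-fold higher in Drp1LiKO untreated and 3.07-fold with palmitate. Cyp2c44, named Cyp2c23 in RefSeq, an arachidonic acid epoxygenase, had levels of 1.96, 3.08, 1.91 and 3.04 and was 2.18-fold and 2.19-fold higher. Its second probe gave log2 differences of 1.21 and 1.04, and with arrays centred on their median the first gave 0.94 and 0.98, below 2-fold. Cyp2c55 was well above background on the Drp1LiKO arrays alone and was at least 1.61-fold higher untreated and at least 1.02-fold higher with palmitate. With normexp its log2 difference untreated was 0.17, smaller than that bound.

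The pericentral Cyp2c genes other than Cyp2c29 lay on the other side of 0. Cyp2c37 had levels of 2.56, 2.23, 2.39 and 2.03, Cyp2c50 had 2.34, 2.08, 2.24 and 1.97, and Cyp2c54 had 2.39, 2.17, 2.39 and 2.10, in the same order of arrays. Each was thus lower in Drp1LiKO in both conditions. These enzymes, which make epoxides of arachidonic acid, differed by -0.32, -0.26 and -0.22 untreated and by -0.36, -0.27 and -0.29 with palmitate. Cyp2c29, a CAR and PXR target of the same zone, had levels of 2.01, 2.33, 1.92 and 2.13 and differed by 0.32 and 0.21. Cyp2c38 differed by 0.35 and 0.37, and the overlapping probes for Cyp2c40, Cyp2c67, Cyp2c68 and Cyp2c69 by 0.25 to 0.66 untreated and 0.32 to 0.63 with palmitate. None of these reached 2-fold.

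Cyp2d genes differed little between the genotypes and mostly in 1 direction. Of 10 measured, 9 were higher in Drp1LiKO in each condition, with medians of 0.48 and 0.55 and 0 at 2-fold. Cyp2d26 had levels of 5.25, 5.93, 5.03 and 5.72, and its second probe differed by 0.56 and 0.57 where the first gave 0.68 and 0.69. Cyp2d10 had levels of 4.45, 5.01, 4.20 and 4.76 and Cyp2d11 had 4.53, 5.02, 4.32 and 4.85, each about as far apart by genotype. Cyp2d9, a male-predominant steroid hydroxylase, had levels of 1.91, 2.37, 1.59 and 2.14 and differed by 0.47 and 0.55. Cyp2d13 differed by 0.50 and 0.21, and its second probe, well above background on 1 array, by 1.67 and -0.11. Cyp2d40 was the exception, with levels of 3.66, 3.12, 3.59 and 3.10 and differences of -0.54 and -0.50. Among members well above background on all arrays, Cyp2d22 had the widest gap between conditions, at 0.30 untreated and 0.83 with palmitate.

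Cyp2e1, which oxidises ethanol and paracetamol in the pericentral zone, was lower in Drp1LiKO by both of its probes. The brighter had levels of 4.71, 4.05, 4.46 and 3.74, differences of -0.66 and -0.72, and the dimmer gave -0.70 and -0.83. Cyp2r1, the main vitamin D hydroxylase of liver, had levels of 1.38, 0.70, 1.70 and 0.81 and differed by -0.68 and -0.89. Cyp2j9, of a subfamily that oxidises arachidonic acid, had the lowest difference among members well above background on all arrays, with levels of -2.86, -3.81, -2.88 and -4.11. Its differences of -0.95 and -1.22 passed 2-fold with palmitate alone, and with normexp they were smaller, at -0.53 and -0.51. The other 4 measured Cyp2j genes lay above 0 by at most 0.57. Cyp2j5, the renal and hepatic epoxygenase of this subfamily, had levels of 0.17, 0.74, 0.02 and 0.54, and Cyp2j6 had 1.11, 1.30, 0.96 and 1.07, with a second, dim probe at -0.28 untreated and 0.21 with palmitate. The Cyp2j13 probe differed by 0.16 and 0.17 and that of Cyp2j8 by 0.23 and 0.13, and the subfamily median of 0.19 and 0.13 was 0.01 and -0.01 after median centring.

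Cyp2u1, a fatty acid hydroxylase, shows how the choice of probe can set a value. Its brightest probe on chromosome 3 carries a run of 30 bases of TG and had levels of 6.49, 6.43, 6.51 and 6.79, whereas its 2 other probes lay between -3.35 and -2.03. The first 30 bases of those probes, and 30 bases of the repeat probe with the repeat in capitals, read as follows (mm9 start positions).
Cyp2u1, start 130996343: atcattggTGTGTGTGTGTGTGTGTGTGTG
Cyp2u1, start 131000768: agcagcttcgacgaggactacctgttctac
Cyp2u1, start 130997965: tgtccatggtggtgccgctcgccattcctc
The repeat probe differed by -0.06 untreated and 0.28 with palmitate. The probe starting at 131000768 differed by -0.66 and -1.17, and that starting at 130997965 by -0.72 and -0.56.

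Of 3 AhR targets, 2 were measured. Cyp1a2, which oxidises caffeine, had levels of -0.79, 0.03, -0.98 and -0.61 and differed by 0.82 and 0.37. Cyp1a1, the most inducible AhR target, was well above background on both Drp1LiKO arrays alone, with levels of -3.69 and -3.81, and was at least 2.06-fold higher untreated and at least 1.29-fold higher with palmitate. Its log2 difference of 1.77 untreated was 0.36 with normexp. Cyp1b1 was not well above background.

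**Figure D3:**
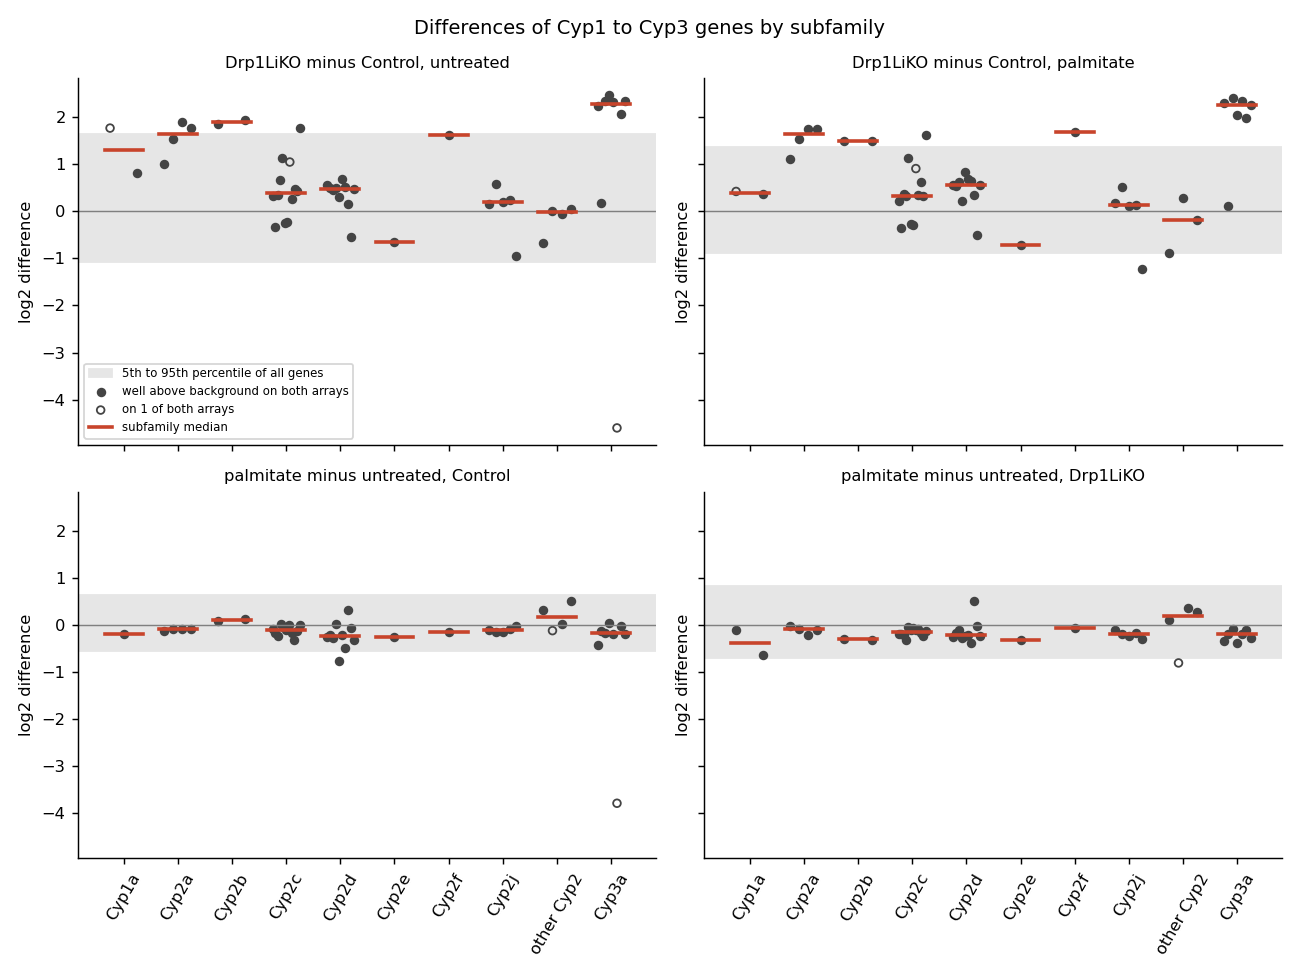
Log2 difference of each measured gene (points) by subfamily in the 4 comparisons (panels), with the subfamily median in red; open points were well above background on 1 of both arrays, and the grey band holds the 5th to 95th percentile of all genes measured. On the untreated genotype panel the Cyp3a median is 2.28 and the Cyp2a median 1.64, and on both palmitate panels nearly all points lie within 0.5 of 0.

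By role, the lists gave the following counts, to be read beside the shares over all genes of 8.84% higher and 5.59% lower untreated and 7.26% and 4.26% with palmitate. Of 5 CAR and PXR targets, 3 (Cyp2b10, Cyp3a11 and Cyp3a25) were at least 2-fold higher in Drp1LiKO in both conditions, and Cyp2c29 and Cyp3a13 were not. Of 7 pericentral genes, Cyp2a5 was at least 2-fold higher, Cyp1a2 and Cyp2c29 were above 0 and the other 4 were below it, and the list median was -0.22 untreated and -0.27 with palmitate, while the periportal Cyp2f2 was at least 2-fold higher. Of 7 female-predominant genes measured on the untreated arrays, 4 (Cyp2a4, Cyp2b9, Cyp3a16 and Cyp3a41a) were at least 2-fold higher and Cyp3a44 was lower, and Cyp2c40 and Cyp2c69 differed by 0.66 and 0.42. These lists are not separate, because some of their probes share signal. By the annotation, the Cyp2a4 probe also lists Cyp2a5, the Cyp2b9 probe Cyp2b10, and the Cyp3a11 probe Cyp3a41a. The same transcripts may thus count in more than 1 list. Of 9 epoxygenases, Cyp2c44 was at least 2-fold higher and Cyp2j9 was lower, the latter with palmitate alone, each 11.1% of the list.

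The genotype differences of the untreated and palmitate arrays, which share no array, were alike. Over the 45 members well above background on all 4 arrays, the correlation between them was 0.978 (Pearson) or 0.940 (Spearman), a description across genes that share probe sequences and are not independent. The median gap between the paired differences was 0.09, and 43 of 45 had the same sign. Cyp2u1 and Cyp2w1 were the exceptions. The labels do not say whether the untreated and palmitate cells of a genotype came from separate mice or cell isolations. Genotype and cell preparation therefore cannot be told apart, and this likeness is no replication of the genotype difference.

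**Figure D4:**
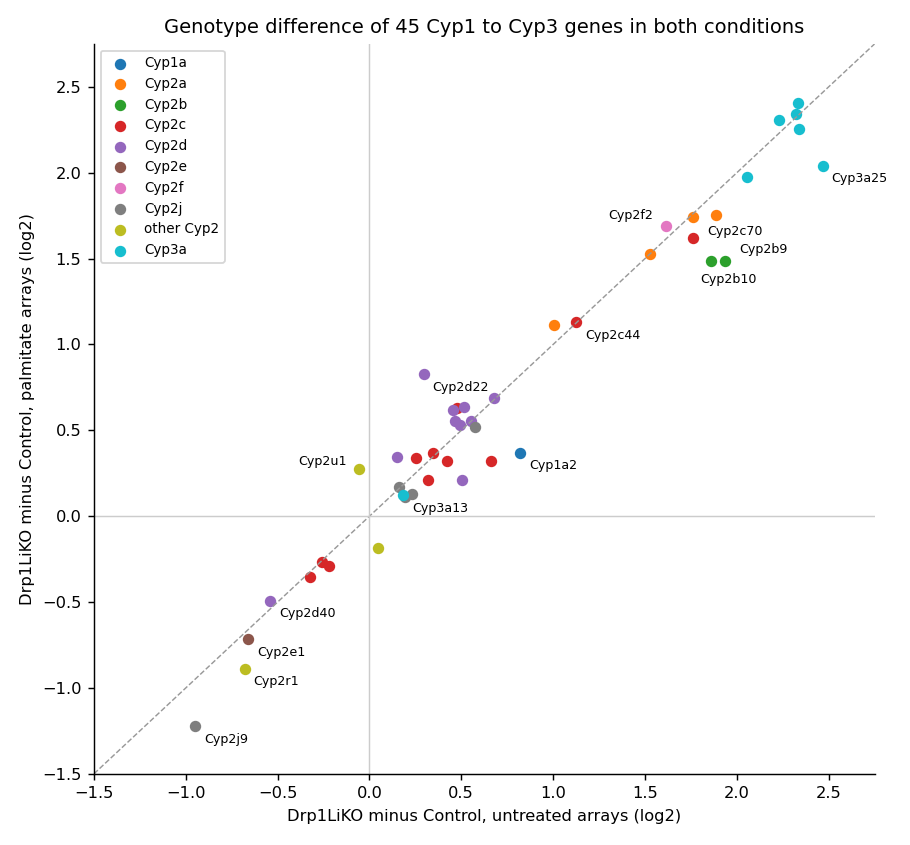
Log2 difference between Drp1LiKO and Control on the untreated arrays (horizontal axis) and on the palmitate arrays (vertical axis) for the 45 genes whose probe passed the background mark on all 4, coloured by subfamily, with the line of equal values dashed. The points follow the line, from Cyp2j9 at -0.95 and -1.22 to Cyp3a25 at 2.47 and 2.04.

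The other P450 families and the conjugation enzymes were read beside the members. Of 23 P450 genes of other families measured untreated, 8 were at least 2-fold higher (34.8%) and 2 lower (8.70%), with a median of 0.35. Of 43 conjugation enzymes (Ugt, Sult and Gst genes), 4 were at least 2-fold higher (9.30%) and 2 lower (4.65%), near the 8.84% and 5.59% of all genes, with a median of 0.47. On the palmitate arrays 10 of 24 other P450 genes (41.7%) and 4 of 42 conjugation enzymes (9.52%) were at least 2-fold higher and 0 lower. The medians there were 0.37 and 0.46. Of the members, 34.7% were at least 2-fold higher untreated and 31.9% with palmitate, so such a share was also seen in the other P450 families. Among genes well above background on both palmitate arrays, the shares were 26.3% of 19 other P450 genes and 33.3% of 45 members. The members' medians were 0.49 and 0.53, and no test of these differences was possible with 1 array a group.

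Between the palmitate and untreated arrays the members differed little. In Control 0 of 47 members were at least 2-fold higher and 1 lower, beside 2.83% and 2.87% of 18772 genes. That gene was Cyp3a44, described above. In Drp1LiKO 0 of 48 were at least 2-fold in either direction, beside 3.93% higher and 3.11% lower of 19746 genes. The members lay slightly below 0, with medians of -0.13 in Control and -0.18 in Drp1LiKO against 0.01 and 0.00 over all genes. Of the 45 well above background on all arrays, 34 were lower with palmitate in both genotypes. The other P450 families lay about as low, with a median of -0.14 in each genotype. Of their genes, 20 of 22 in Control and 17 of 24 in Drp1LiKO were below 0. The conjugation enzymes had medians of -0.03 and -0.01. By subfamily, all 12 measured Cyp2c genes, all 5 Cyp2j genes and all 7 Cyp3a genes lay below 0 with palmitate in Drp1LiKO, with medians of -0.15, -0.19 and -0.19, and 9 of 10 Cyp2d genes did, with a median of -0.21. In Control 8 of 11 Cyp2c, 5 of 5 Cyp2j, 8 of 10 Cyp2d and 7 of 8 Cyp3a genes lay below 0. The median size of the difference was 0.14 in Control and 0.20 in Drp1LiKO, against 0.55 and 0.62 for the genotype differences. Where both arrays were well above background, the largest differences were those of Cyp2d22, by -0.76 in Control and -0.23 in Drp1LiKO, and of Cyp1a2, by -0.64 in Drp1LiKO and -0.19 in Control. Cyp2d37-ps ran the other way, at 0.31 and 0.51, as did Cyp2w1, at 0.51 and 0.27.

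Regulators and partners of these enzymes were read from fixed lists. Of 15 regulators 12 were measured, and 1 was at least 2-fold higher in Drp1LiKO in each condition and 0 were lower, a share of 8.33% beside 8.84% and 7.26% over all genes. That gene was Nr1i3, which encodes CAR, with levels of -4.61 in Control, -2.89 in Drp1LiKO, -3.23 in Control palmitate and -1.96 in Drp1LiKO palmitate, differences of 1.72 and 1.27. Its untreated Control level lay near -4.74, the lowest signal well above background on that array. With palmitate Nr1i3 was higher by 1.38 in Control and by 0.93 in Drp1LiKO. Nr1i2, which encodes PXR, was not well above background on any array. The hepatocyte factor Hnf4a differed by 0.07 and 0.16, Rxra, the common partner of CAR and PXR, by 0.17 and 0.25, and Ahr by 0.04 and 0.33. Of the 12 regulators, 5 lay below 0 untreated and 4 with palmitate. Arnt differed by -0.72 and -0.13, Cebpa by -0.51 and -0.18, Nr3c1 by -0.49 and -0.42 and Foxa2 by -0.41 and -0.53.

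Of 15 genes for electron transfer and haem supply all were measured. Por, the P450 reductase, differed by 0.45 and 0.81, with levels of 4.76, 5.22, 4.40 and 5.22 on the Control, Drp1LiKO, Control palmitate and Drp1LiKO palmitate arrays. Alas1, the first and rate-limiting enzyme of haem synthesis in liver, had levels of 3.99, 4.95, 4.15 and 5.05 and differed by 0.96 and 0.90, just under 2-fold. Hmox1, which breaks haem down, was the single gene of the list at 2-fold by genotype, with levels of 3.20, 0.36, 4.43 and 4.77, a difference of -2.83 untreated and 0.34 with palmitate.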

How the data were processed

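RNA was amplified with a low-input kit, labelled with 1 dye (Cy3) and read on mouse whole-genome arrays of 60-base probes. The scanner tables hold spot intensity values on a linear scale, deposited by the authors after spatial detrending of the background and multiplicative detrending within each array; the file headers name Feature Extraction 10.7.1.1 and the submitters' processing notes name 9.5.1.1. A second table of intensity values, processed by the authors, keeps each array's ranks but gives nearly all ranks 1 common value, as quantile normalization does; it was tried as an alternative. For RNA isolation, TRIzol with a column kit stands in the labels and another column kit in the methods.

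Control spots and outlier spots were left out, repeat spots averaged, and the array's 75th percentile (485, 542, 424 and 468 for Control, Drp1LiKO, Control palmitate and Drp1LiKO palmitate) subtracted from log2 of the processed signal. The number of arrays limits the precision. A probe well above background on 1 of 2 arrays gives a lower bound, the bright value over the higher of the dim value and the lowest signal well above background on the dim array. Alternatives used limma 3.58.1 in R 4.3.3; the rest used Python 3.11.15. The comparison was tested on simulated data with known changes.

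Named were all members at 2-fold with the probe well above background on both arrays, members with a bound of 2-fold, members of fixed role lists, and other members beside them chosen after their values were seen. The members and lists were chosen with earlier results of these data known. Probe positions are those of the array's annotation (mm9). RefSeq's GRCm38.p6 table named 59 of 60 members by symbol and Cyp2c44 as a synonym, and 50 had a promoter (first start used where 2 were listed). Protein sequences were not used here.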

Additional observations from a re-analysis of the deposited data

Results flagged for a closer look

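Members whose value ran opposite ways in the 2 genotypes or conditions, each by more than 0.0556, the SD that spot noise gives a difference, were Cyp2u1, Cyp2b10 and Cyp2b9; with 1 array a group the differences were not tested. The direction of Cyp2u1 rests on its probe. The repeat-bearing probe for Cyp2u1 was lower in Drp1LiKO untreated (-0.06) and higher with palmitate (0.28), a gap of 0.33; the mean over its 3 probes was -0.48 in both conditions. Cyp2b10 was higher with palmitate in Control (0.08) and lower in Drp1LiKO (-0.29), a gap of -0.37. Cyp2b9, whose probe also lists Cyp2b10, was at 0.14 and -0.31, a gap of -0.44.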

How the results depend on the processing

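No member at 2-fold changed sign under the scaling, probe or filter alternatives. Of 18 such members untreated and 16 with palmitate, 15 and 14 remained after median centring (Cyp2a12 and Cyp2c44 were lost in both, Cyp2c55 untreated; Cyp2j9 was gained untreated and Cyp2r1 with palmitate). With normexp 16 and 14 remained (Cyp1a1 and Cyp2c55 were lost untreated, Cyp2b9 and Cyp2j9 with palmitate). With quantile normalization or the authors' processed values 17 and 16 remained (Cyp2c55 was lost and Cyp2j9 gained untreated). Median centring moved the median of all genes by -0.18 untreated and -0.15 with palmitate, and the members' median difference by genotype to 0.31 and 0.39; with normexp it was 0.40 and 0.33. Without a filter on dim probes, which moved the median of all genes by -0.20 in both genotype comparisons and by 0.22 and 0.21 in those of palmitate, the median with palmitate was 0.34, the Cyp2b median untreated became -0.23 because 3 genes at background joined it, and the count by palmitate became 3 in Control and 1 in Drp1LiKO. Requiring both arrays above background left 15 of the 18 untreated (Cyp1a1, Cyp2c55 and Cyp3a44 were lost) and made the count by palmitate in Control 0, and raising dim values to the floor lost Cyp2c55. Over all genes, the untreated genotype count of 1756 higher and 1110 lower was 577 and 471 with normexp, 788 and 590 with both arrays above background and 2591 and 2097 without a filter. An alternative added after seeing the data kept only members whose probe lists no other gene: 13 of 39 were at 2-fold by genotype untreated and 11 of 37 with palmitate, with medians of 0.47 and 0.52. Leaving out a replicate was not possible with 1 array a group. No paired analysis was possible because each group has 1 array. Dim probes limit Cyp1a1, Cyp2c55, Cyp2s1 and Cyp3a44 to bounds.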
